A study of Mus musculus with 7 samples.

Results

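The genes described here are 10 members of transforming growth factor beta (TGF-beta), activin and bone morphogenetic protein (BMP) signalling, read in sorted mouse EML cells. They are the ligand Tgfb1, the type II receptors Tgfbr2 and Bmpr2, the type I receptors Tgfbr1 and Acvr1b, the signal carriers Smad2, Smad3 and Smad4, the inhibitory Smad7 and the corepressor Ski. They were taken by gene symbol from a table of 20464 rows, where each was listed once, and all 10 were among the 9259 genes tested. EML cells are a mouse multipotent blood progenitor line that can give erythroid, myeloid and lymphoid cells. The line was made with a dominant-negative retinoic acid receptor and grows in stem cell factor, so its signalling need not be that of a primary progenitor. Live cells were sorted into a CD34-positive group of 3 libraries and a CD34-negative group of 4 libraries, with dying cells removed by Annexin V staining, and no drug or genetic treatment is given for either group. The labels of both groups give the strain C57BL/6, bone marrow as tissue and an age of postnatal day 14.7, although the source label names the line. For the negatives, the titles say CD34 but the genotype field says CD43; the grouping here rests on the titles. The question is how RNA of this pathway differs between cells with and without CD34 in a precursor that can renew itself or mature.

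TGF-beta and activin bind a type II receptor, which phosphorylates a type I receptor. The type I receptor then phosphorylates Smad2 and Smad3, which join Smad4 and regulate genes in the nucleus. BMPs work in the same way through other receptors and through Smad1, Smad5 and Smad9. Smad7 blocks the receptors, and Ski represses genes bound by the Smad complex. In blood formation, TGF-beta is best known for restraining the division of stem and progenitor cells.

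The sequences just upstream of the start sites of Acvr1b, Smad3, Tgfbr1 and Tgfb1 are shown because these 4 members stood higher in CD34-positive cells in every comparison between libraries of equal number, described further on. Each is the 250 bases before the RefSeq start (GRCm38.p6), 5′ to 3′ on the gene's strand. The capitals mark the GC box GGGCGG or its reverse complement, the core of Sp1 family sites. The windows are chr15:101173822-101174071 on the plus strand for Acvr1b, chr9:63757995-63758244 on the minus strand for Smad3, chr4:47352972-47353221 on the plus strand for the upstream of 2 listed Tgfbr1 starts, and chr7:25686752-25687001 on the plus strand for Tgfb1.
Acvr1b: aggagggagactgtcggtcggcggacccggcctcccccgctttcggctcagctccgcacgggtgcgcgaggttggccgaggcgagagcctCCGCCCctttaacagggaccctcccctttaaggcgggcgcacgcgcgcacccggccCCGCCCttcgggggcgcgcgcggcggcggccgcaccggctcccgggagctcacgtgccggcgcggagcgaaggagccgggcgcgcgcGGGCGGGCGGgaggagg
Smad3: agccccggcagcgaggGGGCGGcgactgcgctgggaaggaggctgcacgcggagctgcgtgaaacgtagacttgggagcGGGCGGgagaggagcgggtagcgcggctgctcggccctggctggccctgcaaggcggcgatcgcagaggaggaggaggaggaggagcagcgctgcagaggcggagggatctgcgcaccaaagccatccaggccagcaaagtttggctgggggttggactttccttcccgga
Tgfbr1: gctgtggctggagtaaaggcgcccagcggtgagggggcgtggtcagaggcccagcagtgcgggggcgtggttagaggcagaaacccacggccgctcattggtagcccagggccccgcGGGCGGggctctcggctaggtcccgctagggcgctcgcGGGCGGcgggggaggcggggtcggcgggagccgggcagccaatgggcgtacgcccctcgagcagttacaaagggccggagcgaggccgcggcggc
Tgfb1: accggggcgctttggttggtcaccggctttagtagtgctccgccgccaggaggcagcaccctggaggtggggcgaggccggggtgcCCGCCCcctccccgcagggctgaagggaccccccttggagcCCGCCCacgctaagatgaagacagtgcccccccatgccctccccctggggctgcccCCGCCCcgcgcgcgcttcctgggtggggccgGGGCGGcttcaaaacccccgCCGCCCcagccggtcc
The GC box occurred 4 times in the Acvr1b window, with overlapping copies counted, 2 times in that of Smad3, 2 times in that of Tgfbr1 and 5 times in that of Tgfb1. Of the 8 windows of the 7 members with an entry, 6 held it. Ski, which stood lower in CD34-positive cells within every number, had 5 copies and the highest G and C content, at 87.6%. Bmpr2 had 1 copy, and Tgfbr2 and the other Tgfbr1 start had 0. The GC box was found on either strand in 32.7% of 32851 such windows of the whole table. The windows of the 4 members shown are rich in G and C, at 78.8% for Acvr1b, 69.2% for Smad3, 74.8% for Tgfbr1 and 75.2% for Tgfb1, where the median window has 52.4% and the other Tgfbr1 start 52.8%. No window of these 7 members held the palindromic Smad box GTCTAGAC (0.167% of all windows), the GATA core GATAA (22.6%) or the Runx core TGTGGT (14%), each searched on both strands. These matches describe letters and are not evidence of binding.

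Values are FPKM (fragments scaled to transcript length and to library size), and the depth behind them is unknown. Libraries of both groups differed in make-up. The share of all FPKM that came from ribosomal protein genes was 27.6% to 37.0% in both replicates 1 and 2, but 3.63% in CD34-positive replicate 3 and 2.21% and 4.07% in CD34-negative replicates 3 and 4. In their descriptions those 3 libraries carry the number 4 or 4a, with 4a for CD34-negative replicate 4. Replicate 1 carries 3a in the CD34-positive and 3 in the CD34-negative group, read here as number 3, and replicate 2 carries 2 in both. A microRNA gene, Mir703, held 34.6% of the summed FPKM in CD34-negative replicate 3 and 13.2% in CD34-negative replicate 4. Rescaling FPKM without both gene classes, an alternative chosen after seeing the data, kept the sign of every member but Smad2 in the fit of the 2 groups alone. Cd34 itself stood at 147, 256 and 153 FPKM in CD34-positive replicates 1, 2 and 3, against 91.8, 19.3, 2.67 and 6.02 FPKM in CD34-negative replicates 1, 2, 3 and 4. Every CD34-positive library was above every CD34-negative one, but CD34-negative replicate 1 was much closer to the positive libraries than the other 3.

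No member differed between the groups past the threshold. In limma on log2(FPKM + 1) with the 2 groups alone, 0 of 10 members had an adjusted p under 0.05 in either direction (0% of all 9259 genes), and 0 did with the description number as a block (0%). At an unadjusted p under 0.05, 2 members were higher in CD34-positive cells in the fit of the 2 groups alone (3.38% of all genes) and 0 were lower (2.27%). They were Smad3 and Acvr1b. Leaving out CD34-positive replicate 1 left 0 at that level, and leaving out CD34-positive replicate 2 or CD34-negative replicate 2, 3 or 4 left 1. With the block, 3 members had higher values at that level (12.8% of all genes), Smad3, Acvr1b and Tgfbr1, and 1 had a lower value (9.14%), Ski. The median difference of the members was 0.37 in the fit of the 2 groups alone and 0.36 with the block, against 0.086 and 0.037 over all tested genes. In the fit of the 2 groups alone, the unadjusted counts over all genes were 313 higher and 210 lower, or 373 and 157 when FPKM were rescaled without ribosomal protein genes. With the block the split was 1188 and 846, or 1201 and 320 with that rescaling. In bulk RNA of this kind, fewer cells expressing a gene and less RNA per cell cannot be told apart.

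**Figure D1:**
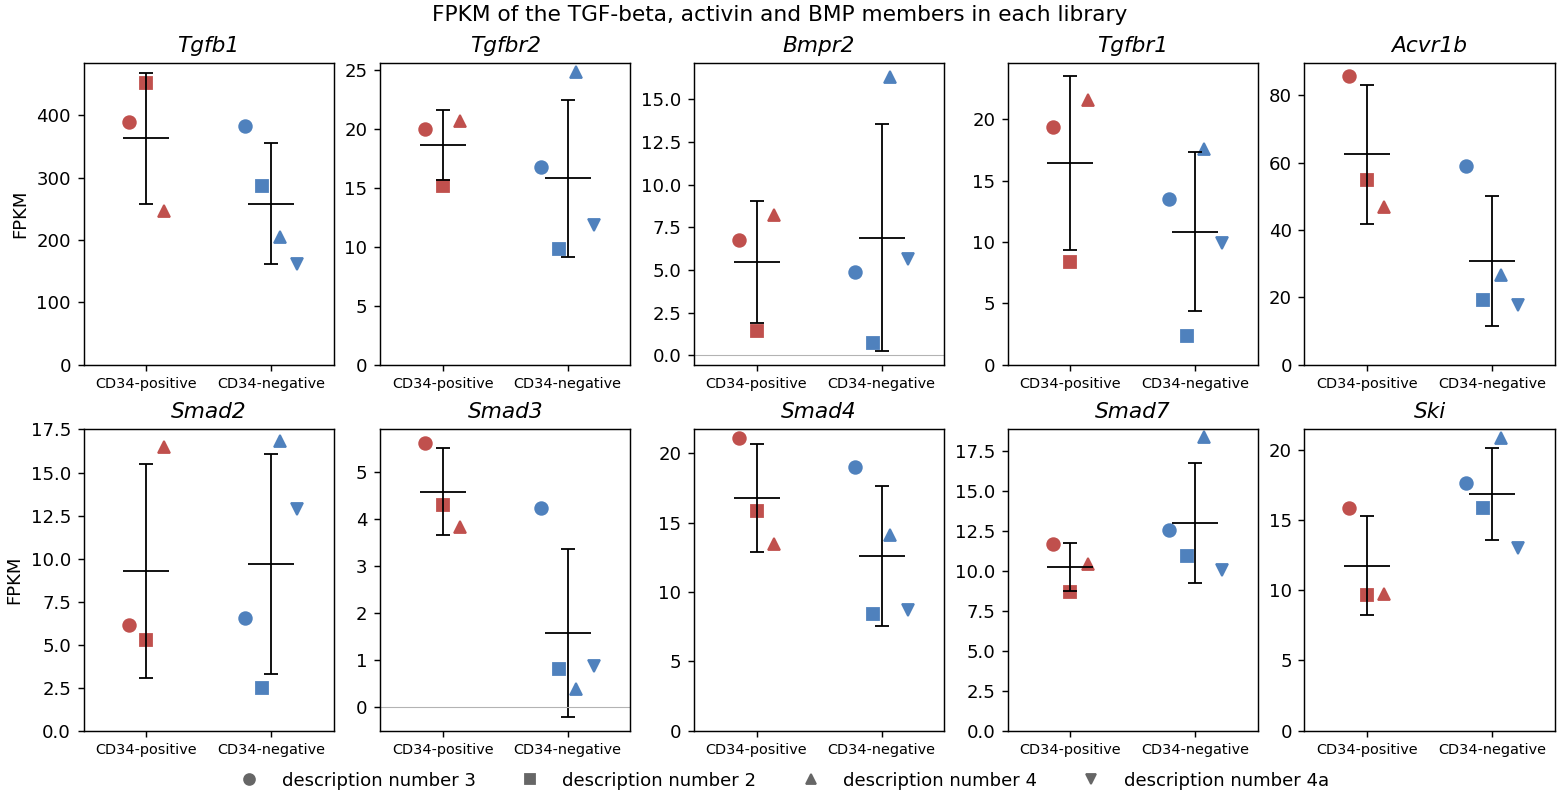
FPKM (vertical axes, linear) of each member in 3 CD34-positive and 4 CD34-negative libraries, with the marker shape giving the description number and the black bar and whiskers the mean ± SD. Acvr1b and Smad3 are low in 3 of 4 CD34-negative libraries, with CD34-negative replicate 1 (circle) at 59.1 and 4.24 FPKM among the CD34-positive values.

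Tgfb1, the ligand, was the most highly expressed member, above 97.7% of all tested genes by its mean. It stood at 389.8, 453 and 247 FPKM in CD34-positive replicates 1, 2 and 3, against 382, 286, 204 and 161 FPKM in replicates 1, 2, 3 and 4 of the CD34-negative group. The groups overlapped, since CD34-positive replicate 3 was below CD34-negative replicates 1 and 2. The mean ± SD of Tgfb1 was 363 ± 105 FPKM over the 3 CD34-positive libraries, against 259 ± 97.5 FPKM over the 4 CD34-negative libraries. The difference was 0.52 (SE 0.55) on the log2 scale in limma (unadjusted p = 0.369) and 0.38 (SE 0.18) with the block (adjusted p = 0.261). Between libraries of equal number it was 0.028 for number 3, 0.66 for number 2, 0.27 for number 4 and 0.61 for number 4a, all above 0, with the CD34-positive library of number 4 set against both number 4 and 4a.

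The type II receptors did not separate the groups. Tgfbr2, the receptor that binds TGF-beta first, stood at 20.0, 15.2 and 20.7 FPKM in CD34-positive replicates 1, 2 and 3, against 16.8, 9.82, 24.8 and 11.9 FPKM in replicates 1, 2, 3 and 4 of the CD34-negative group. The highest and the second lowest values both belonged to CD34-negative libraries of number 4 and 4a. Its difference was 0.29 (SE 0.36) in limma (unadjusted p = 0.441) and 0.34 (SE 0.25) with the block (adjusted p = 0.463). Bmpr2, the type II receptor for BMPs, ranged widely, at 6.75, 1.45 and 8.24 FPKM in CD34-positive replicates 1, 2 and 3, against 4.89, 0.740, 16.3 and 5.62 FPKM in replicates 1, 2, 3 and 4 of the CD34-negative group. Its highest value was in CD34-negative replicate 3, and the difference was -0.064 (SE 0.76) in the fit of the 2 groups alone but 0.18 (SE 0.35) with the block, so its sign depended on the fit.

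The type I receptors had higher values in CD34-positive cells within every number. Acvr1b, the activin type I receptor also called ALK4, stood at 85.9, 54.8 and 46.7 FPKM in CD34-positive replicates 1, 2 and 3, against 59.1, 19.3, 26.7 and 17.7 FPKM in replicates 1, 2, 3 and 4 of the CD34-negative group. Without CD34-negative replicate 1, at 59.1 FPKM, the groups would not overlap. The mean ± SD of Acvr1b was 62.5 ± 20.7 FPKM over the 3 CD34-positive libraries, against 30.7 ± 19.3 FPKM over the 4 CD34-negative libraries. The difference was 1.12 (SE 0.47) in limma (adjusted p = 0.853) and 1.02 (SE 0.22) with the block (adjusted p = 0.0931). Within numbers it was 0.53 for number 3, 1.46 for number 2, 0.78 for number 4 and 1.35 for number 4a.

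Tgfbr1, the TGF-beta type I receptor also called ALK5, was expressed at a lower level than Acvr1b, at 19.3, 8.35 and 21.6 FPKM in CD34-positive replicates 1, 2 and 3, against 13.5, 2.30, 17.6 and 9.93 FPKM in replicates 1, 2, 3 and 4 of the CD34-negative group. The groups overlapped widely, and the number 2 library was the lowest of its group in both. The difference was 0.71 (SE 0.61) in limma (unadjusted p = 0.276) and 0.86 (SE 0.26) with the block (adjusted p = 0.135). Within numbers it was 0.49 for number 3, 1.5 for number 2, 0.28 for number 4 and 1.05 for number 4a. The ratio of the 2 type I receptors followed the number of the library more than its group. Acvr1b made up 81.6%, 86.8% and 68.4% of the summed FPKM of Acvr1b and Tgfbr1 in CD34-positive replicates 1, 2 and 3, and 81.4%, 89.4%, 60.3% and 64.0% in CD34-negative replicates 1, 2, 3 and 4.

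**Figure D2:**
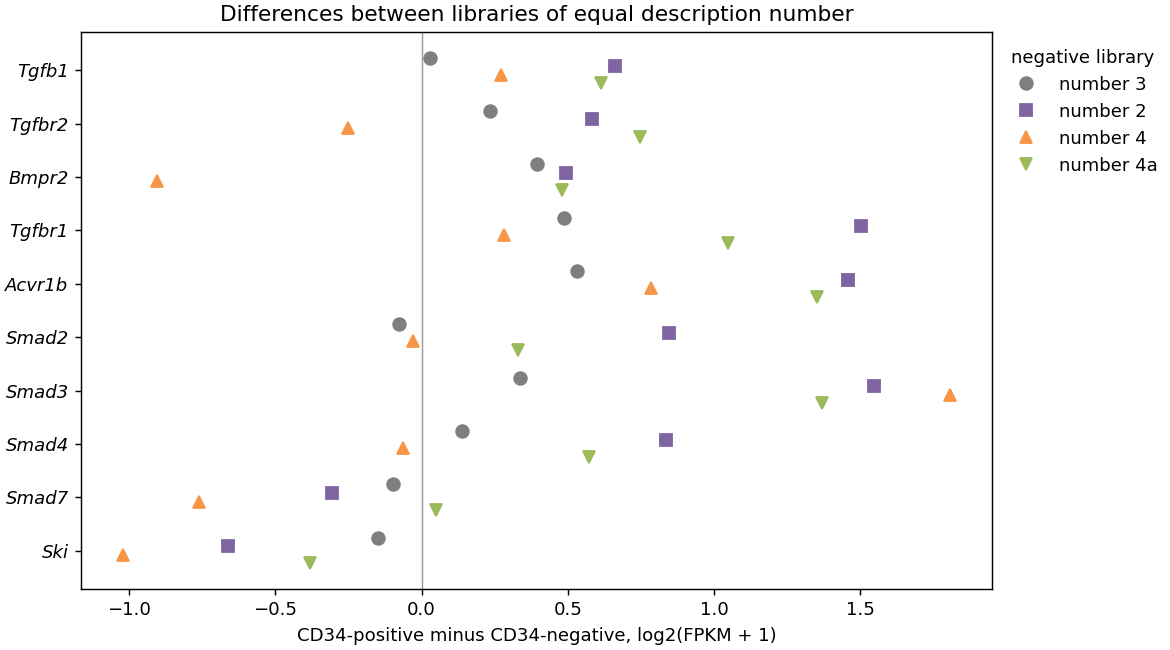
Difference in log2(FPKM + 1), CD34-positive minus CD34-negative, for each member (rows) between libraries of equal description number, where number 4a is the fourth CD34-negative library set against the CD34-positive library of number 4. All 4 markers lie right of 0 for Tgfb1, Tgfbr1, Acvr1b and Smad3 and left of 0 for Ski.

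Among the signal carriers, Smad3 had the largest difference of the 10 members. It had the lowest mean over the libraries, at 5.62, 4.30 and 3.82 FPKM in CD34-positive replicates 1, 2 and 3, against 4.24, 0.811, 0.377 and 0.869 FPKM in replicates 1, 2, 3 and 4 of the CD34-negative group. Of the CD34-negative libraries, 3 were under 1 FPKM, and CD34-negative replicate 1 stood within the CD34-positive range. The mean ± SD of Smad3 was 4.58 ± 0.931 FPKM over the 3 CD34-positive libraries, against 1.57 ± 1.79 FPKM over the 4 CD34-negative libraries. The difference was 1.32 (SE 0.45) in limma (adjusted p = 0.686) and 1.20 (SE 0.27) with the block (adjusted p = 0.0931), on a scale that understates low genes. Within numbers it was 0.34 for number 3, 1.55 for number 2, 1.81 for number 4 and 1.37 for number 4a. Number 3 has 1 library per group, so with the block, leaving out either replicate 1 library gives nearly the same fit. Smad3 passed there in limma (difference 1.57, adjusted p = 0.0233 without the CD34-positive and 0.0244 without the CD34-negative one). In these fits 230 and 231 of all tested genes passed as higher, and 81 in each as lower. With no block and without CD34-negative replicate 1, the Smad3 difference was 1.73 in limma (adjusted p = 0.0564).

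Smad2, which receives the same signal as Smad3, did not separate the groups. It stood at 6.16, 5.27 and 16.5 FPKM in CD34-positive replicates 1, 2 and 3, against 6.55, 2.48, 16.8 and 12.9 FPKM in replicates 1, 2, 3 and 4 of the CD34-negative group. The 3 libraries of numbers 4 and 4a were the highest whatever their group, and the difference was 0.038 (SE 0.61) in limma (unadjusted p = 0.952) and 0.29 (SE 0.21) with the block (adjusted p = 0.454). Smad4, the partner shared by all these signals, stood at 21.1, 15.8 and 13.5 FPKM in CD34-positive replicates 1, 2 and 3, against 19.0, 8.41, 14.1 and 8.71 FPKM in replicates 1, 2, 3 and 4 of the CD34-negative group. Its difference was 0.44 (SE 0.36) in limma (unadjusted p = 0.2502) and 0.39 (SE 0.22) with the block (adjusted p = 0.341), with values of 0.14 for number 3, 0.84 for number 2, -0.064 for number 4 and 0.57 for number 4a.

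Because FPKM are per kilobase, Smad2 and Smad3 can be set beside each other within a library, where the scaling of that library cancels. Other differences between the kinds of library do not cancel, and Smad3 was under 1 FPKM in CD34-negative replicates 2, 3 and 4. These ratios were chosen after the members' values were seen and are given with no test. Smad3 made up 47.7%, 44.9% and 18.8% of their summed FPKM in CD34-positive replicates 1, 2 and 3, against 39.3%, 24.6%, 2.19% and 6.32% in CD34-negative replicates 1, 2, 3 and 4. The share was higher in the CD34-positive library within every number, and the groups overlapped because it was lower in the libraries of number 4 and 4a of both groups.

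Ski and Smad7, the 2 negative regulators among the members, had lower means in CD34-positive cells, and neither passed. Ski stood at 15.8, 9.65 and 9.75 FPKM in CD34-positive replicates 1, 2 and 3, against 17.7, 15.8, 20.8 and 13.02 FPKM in replicates 1, 2, 3 and 4 of the CD34-negative group. CD34-positive replicates 2 and 3 were below all CD34-negative libraries, and CD34-positive replicate 1 was above CD34-negative replicate 4 and level with replicate 2. The mean ± SD of Ski was 11.7 ± 3.55 FPKM over the 3 CD34-positive libraries, against 16.8 ± 3.28 FPKM over the 4 CD34-negative libraries. The difference was -0.50 (SE 0.30) in limma (unadjusted p = 0.135) and -0.52 (SE 0.21) with the block (unadjusted p = 0.0417, adjusted p = 0.209). Within numbers it was -0.15 for number 3, -0.66 for number 2, -1.02 for number 4 and -0.38 for number 4a, below 0 each time.

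Smad7 stood at 11.7, 8.67 and 10.5 FPKM in CD34-positive replicates 1, 2 and 3, against 12.6, 10.9, 18.4 and 10.1 FPKM in replicates 1, 2, 3 and 4 of the CD34-negative group. Apart from CD34-negative replicate 3 the libraries lay between 8.67 and 12.6 FPKM. The difference was -0.29 (SE 0.30) in limma (unadjusted p = 0.361) and -0.26 (SE 0.22) with the block (adjusted p = 0.516), and it was above 0 only against number 4a. The ratio of Ski to Smad4 FPKM within a library was 0.752, 0.610 and 0.724 in CD34-positive replicates 1, 2 and 3, against 0.927, 1.88, 1.48 and 1.49 in CD34-negative replicates 1, 2, 3 and 4. For this ratio, one of 5 computed, the groups did not overlap, while those of Ski and of Smad4 alone did. It was chosen after the members' values were seen. It sets Ski, lower on average in CD34-positive cells, over Smad4, higher on average. The separation is therefore not a test, and no share of all gene pairs is given. The ratio of Smad4 to Smad7 was 1.80, 1.82 and 1.29 in CD34-positive replicates 1, 2 and 3, against 1.52, 0.768, 0.767 and 0.865 in CD34-negative replicates 1, 2, 3 and 4, and there the groups overlapped through CD34-negative replicate 1. The ratio of Tgfbr1 to Tgfbr2 ranged from 0.549 to 1.04 in CD34-positive and from 0.234 to 0.835 in CD34-negative libraries.

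**Figure D3:**
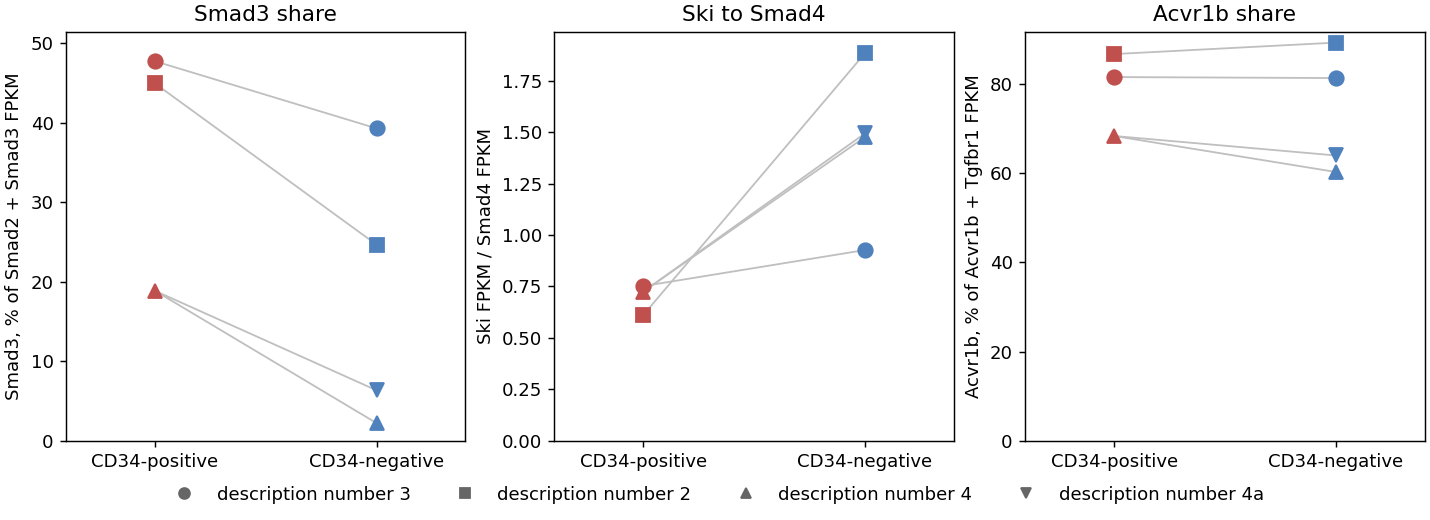
Ratios of FPKM within a library for 3 CD34-positive (left, red) and 4 CD34-negative (right, blue) libraries, with grey lines joining libraries of equal description number; the lines from the CD34-positive number 4 library run to both number 4 and 4a. The Ski to Smad4 ratio lies at 0.752 or less in every CD34-positive library and at 0.927 or more in every CD34-negative one. The Acvr1b share sorts by number. The ratios were chosen after the members' values were seen, so no separation here is a test.

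Counted over the members, 4 stood higher in CD34-positive cells in all 4 comparisons within numbers (Tgfb1, Tgfbr1, Acvr1b and Smad3; 21.4% of all tested genes) and 1 had lower values in all 4 (Ski; 18.9%). The comparisons for 4 and 4a share the CD34-positive library. Without CD34-positive or CD34-negative replicate 3 the first count was 7, but fewer comparisons then have to agree. The count can only rise for any set of genes in that case, and no share of all genes is given for it. No member had groups that did not overlap, in either direction (2.67% of all genes higher and 3.01% lower). Member differences were smallest in number 3, with a median absolute value of 0.19, against 0.75 in number 2, 0.52 in number 4 and 0.59 in number 4a. Over all tested genes the same median was 0.17, 0.37, 0.29 and 0.29, and the Cd34 difference was 0.68, 3.66, 5.40 and 4.46.

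**Figure D4:**
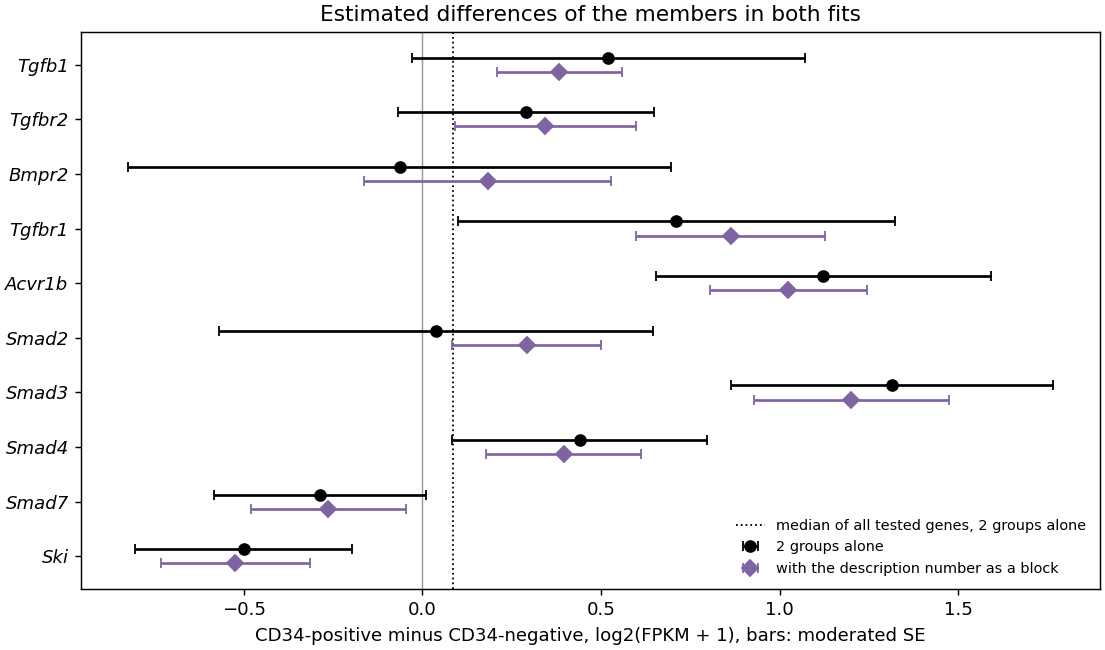
Estimated difference in log2(FPKM + 1), CD34-positive minus CD34-negative, of each member in limma with the 2 groups alone (black circles) and with the description number as a block (purple diamonds), with the moderated SE as bars and the median of all tested genes, 0.086, as a dotted line. The block narrows the bars, and Smad3 (1.32 and 1.20) and Acvr1b (1.12 and 1.02) lie farthest from 0.

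The genes whose profiles over the 7 libraries lay closest to Tgfbr1 and Acvr1b, by the root mean square difference of centred log2 values, belong to other families. For Tgfbr1 they were Stxbp5 at 0.072, Scamp1 at 0.15 and Dtx3l at 0.15. For Acvr1b they were Xpc at 0.13, Hadh at 0.15 and Ttyh2 at 0.16. Among the members, Smad3 was nearest to Acvr1b (0.33, at rank 118 of the tested genes), followed by Smad4 (0.40). Bmpr2 was nearest to Tgfbr1, at 0.54 and rank 950.

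Other genes of the pathway were taken from 5 lists by role, 79 genes in all, of which 78 were listed and 36 were tested. None passed in limma at an adjusted p under 0.05, whether or not the block was used over all 7 libraries. With the block, Acvrl1, Fkbp1a and Smad1 passed without either replicate 1 library, which again is nearly the same fit. Id2 passed with the block without CD34-negative replicate 3. At an unadjusted p under 0.05, 3 of the 36 were higher and 1 lower with the 2 groups alone (3.38% and 2.27% of all tested genes), while the block gave 8 higher and 2 lower (12.8% and 9.14%). Their median difference was 0.13, or 0.23 with the block. Within every number, 10 of the 36 were higher and 5 lower (21.4% and 18.9% of all tested genes).

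Tgfb1 had the highest FPKM of the ligands. Of 26 genes for other ligands and their activation, 4 were tested, and Tgfb2 and Tgfb3 did not exceed 0.15 FPKM in any library. The activin subunits Inha, Inhba and Inhbb and the BMPs Bmp2, Bmp4 and Bmp7 were listed at 0 in all 7. Gdf11, a ligand of the activin group, had 3.84, 2.43 and 3.79 FPKM in CD34-positive cells, against 3.80, 2.35, 3.81 and 2.102 FPKM in CD34-negative cells. Furin, a protease that cleaves the TGF-beta precursor, had 56.8, 41.2 and 36.04 FPKM in CD34-positive cells, against 68.8, 84.4, 209 and 48.9 FPKM in CD34-negative cells, a difference of -0.99 (SE 0.52). Ltbp4, which holds latent TGF-beta in the matrix, had 1.58, 1.39 and 0.875 FPKM in CD34-positive cells, against 2.44, 3.50, 1.55 and 2.16 FPKM in CD34-negative cells, lower within every number. Itgav, an integrin chain that takes part in releasing TGF-beta, differed by 0.085 (SE 0.47) on the log2 scale, and its sign changed with the scaling.

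Of 12 other receptors and coreceptors, 2 were tested. Acvrl1, a type I receptor also called ALK1 that is best known in endothelium, had 2.82, 8.15 and 3.02 FPKM in CD34-positive cells, against 2.101, 0.544, 0.148 and 0.116 FPKM in CD34-negative cells. Every CD34-positive library was above every CD34-negative one, as for 2.67% of all tested genes. The difference was 1.72 (SE 0.46) in limma (adjusted p = 0.647) and 1.59 (SE 0.37) with the block (adjusted p = 0.0951). Acvr2b, an activin type II receptor, had 3.0, 1.62 and 1.69 FPKM in CD34-positive cells, against 3.48, 2.45, 2.77 and 2.28 FPKM in CD34-negative cells and differed by -0.29 (SE 0.27). The BMP type I receptors Acvr1, Bmpr1a and Bmpr1b were listed at 0 in all libraries. A listed 0 is not proof of absence, since 6921 of 20142 symbols are listed at 0 in all 7 libraries and the files do not say how failed estimates were written.

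Of 16 other Smads and cytoplasmic regulators, 14 were tested, and 5 were higher within every number against 1 lower (21.4% and 18.9% of all tested genes). Smad1, which carries BMP signals, had 31.5, 13.9 and 21.2 FPKM in CD34-positive cells, against 25.5, 3.81, 9.80 and 6.52 FPKM in CD34-negative cells. It differed by 1.13 (SE 0.57) in limma (unadjusted p = 0.0805) and 1.10 (SE 0.27) with the block (unadjusted p = 0.0052, adjusted p = 0.0958). Fkbp1a, whose protein binds type I receptors and holds them inactive, had 190.0, 212 and 129.8 FPKM in CD34-positive cells, against 156, 89.9, 32.2 and 32.9 FPKM in CD34-negative cells. Its difference was 1.46 (SE 0.61) in limma (adjusted p = 0.853) and 1.24 (SE 0.30) with the block (adjusted p = 0.0958). The inhibitory Smad6 differed by 0.38 (SE 0.15) and the ubiquitin ligase Nedd4l by 0.68 (SE 0.24) with the block, and neither passed.

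Among 9 tested nuclear partners and corepressors, Tgif1, a Smad corepressor, differed by 0.62 (SE 0.21) with the block, Sin3a by 0.32 (SE 0.16), Sp1 by 0.27 (SE 0.17) and Hdac1 by 0.063 (SE 0.14). Hdac1 followed the kind of library, at 97.6, 90.5 and 15.7 FPKM in CD34-positive cells and 102, 90.4, 12.2 and 14.8 FPKM in CD34-negative cells. Skil, the relative of Ski, was below the minimum, with at most 1.08 FPKM. Foxh1 of the same list was also below it and was not tested. It had 0, 0.271 and 0.0515 FPKM in CD34-positive cells, against 0.940, 13.8, 0.191 and 2.18 FPKM in CD34-negative cells. Of 14 genes known as targets, 7 were tested. Pmepa1, Tgfbi and Ctgf, which are widely used as readouts of TGF-beta signalling in other cell types, were listed at 0 in all libraries.

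The Id genes, targets of Smad complexes that encode inhibitors of E proteins, split in direction. Id1 had 4.10, 2.63 and 2.34 FPKM in CD34-positive cells, against 1.66, 1.34, 0.0908 and 0.457 FPKM in CD34-negative cells, with no overlap between groups, and differed by 1.16 (SE 0.37) in limma (adjusted p = 0.662) and 1.03 (SE 0.20) with the block (adjusted p = 0.0931). Id2 had 17.0, 32.9 and 30.5 FPKM in CD34-positive cells, against 45.8, 77.3, 500.1 and 87.9 FPKM in CD34-negative cells, also with no overlap, and differed by -2.08 (SE 0.76) in limma (adjusted p = 0.725). The Id2 value of CD34-negative replicate 3 was far above that of any other library. Id3 had 6.51, 1.97 and 0.552 FPKM in CD34-positive cells, against 3.82, 1.80, 0.5995 and 1.15 FPKM in CD34-negative cells, with the groups mixed. Cdkn1a, a cell cycle inhibitor induced by TGF-beta in several cell types, had 133, 139.8 and 139 FPKM in CD34-positive cells. In CD34-negative cells it had 128, 121, 123 and 62.7 FPKM. Its groups did not overlap, but 3 of the 4 CD34-negative libraries were close to the CD34-positive ones. Of the 36 other tested pathway genes, 3 were higher with no overlap (Acvrl1, Id1 and Cdkn1a) and 1 lower (Id2). Over all tested genes these shares were 2.67% and 3.01%.

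**Figure D5:**
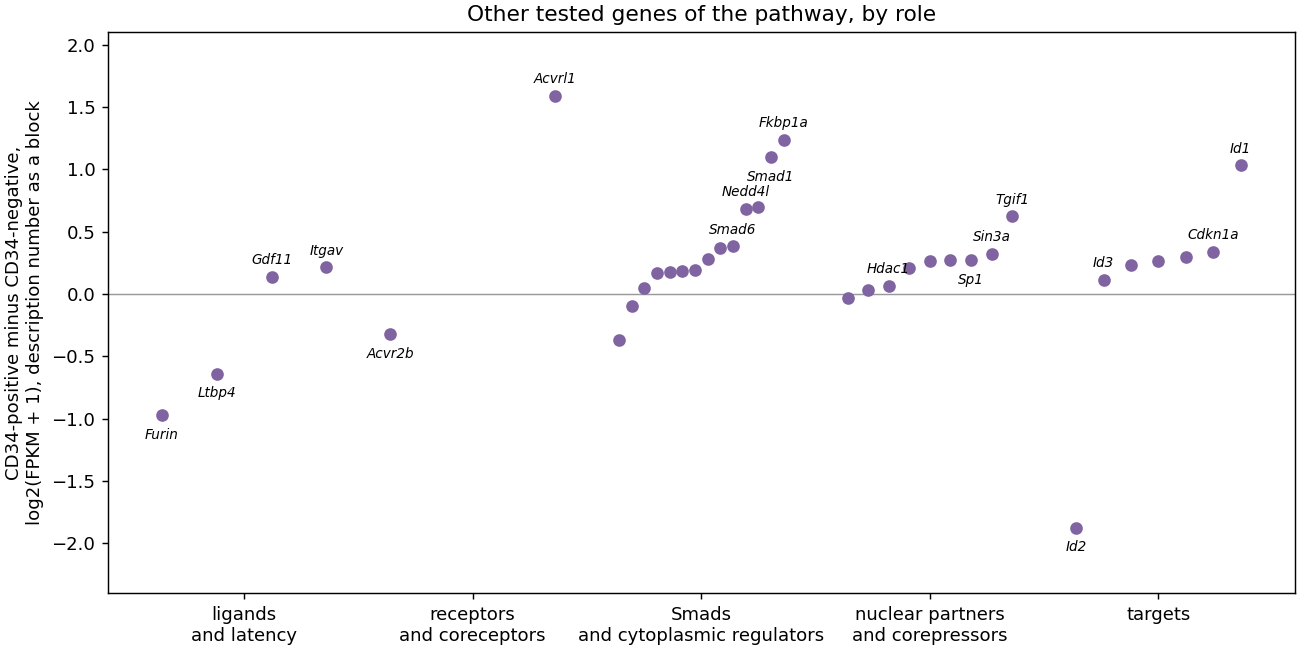
Difference in log2(FPKM + 1), CD34-positive minus CD34-negative, with the description number as a block, for the 36 other tested pathway genes in 5 role lists (points, ordered by value within a list; names for up to 4 genes per list with the smallest p). Acvrl1, Fkbp1a, Smad1 and Id1 lie above 1, and Id2 lies at -1.87; none passed an adjusted p of 0.05.

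Several markers of maturing cells stood at different levels in the sorted groups, in the same libraries as the members. The sums of the marker lists were not tested. The marker counts below can be set against all tested genes. Of these, 21.4% had higher values in the CD34-positive library within every number, and 18.9% had lower values. Of 9 erythroid markers 8 were tested, and 7 were lower in CD34-positive cells within every number. The erythroid sums were 62.5, 653 and 148 FPKM in CD34-positive replicates 1, 2 and 3. In CD34-negative replicates 1, 2, 3 and 4 they were 298, 2142, 160 and 790 FPKM. Of 6 mast cell markers 5 were tested and 4 were lower within every number. Their sums were 2124, 2470 and 3203 FPKM in CD34-positive replicates 1, 2 and 3. In CD34-negative replicates 1, 2, 3 and 4 they were 2548, 2502, 10409 and 1646 FPKM. Against number 4a the mast sum was thus higher in the CD34-positive library. Of 6 neutrophil and monocyte markers 4 were tested, all 4 higher within every number, with sums of 1238 to 2357 FPKM in CD34-positive and 124 to 1310 FPKM in CD34-negative libraries; Elane and Csf1r were under 1 FPKM throughout. The part of these markers' cells in the members' differences was not tested. The 6 progenitor markers of the line were all tested, 3 higher and 2 lower within every number, with sums of 782 to 885 FPKM in CD34-positive and 482 to 1104 FPKM in CD34-negative libraries. All 5 megakaryocyte and platelet markers were tested and 2 were lower within every number, with sums of 228 to 760 FPKM in CD34-positive and 245 to 906 FPKM in CD34-negative libraries. Of 5 lymphoid markers, all but Il7r were under 1 FPKM. The hepatocyte markers Alb and Ttr and the stromal and endothelial markers Col1a2, Col3a1 and Kdr were listed at 0 in all libraries, and Pdgfrb and Pecam1 were higher in CD34-positive cells within every number.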

How the data were processed

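RNA sequencing of 3 CD34-positive and 4 CD34-negative EML libraries was used. The deposited values are FPKM per gene symbol, with 1 column per library and no unit in the header; FPKM is the unit that Cuffdiff writes. The submitters' processing notes name Cuffdiff, TopHat and TopHat2 and the builds mm10 and mm9, with no roles. For versions, annotation and strand, nothing is given in the sources used here. Of 793 low genes shared by the replicate 1 libraries, 194 stand at a ratio within a log2 window of 0.02 around 0.570, CD34-negative over CD34-positive. The number of fragments is unknown, so no counting interval is given.

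105 symbols listed more than once (322 rows) were left out. Genes that reached 1 FPKM in 3 or more libraries were transformed as log2(FPKM + 1) and compared, two-sided, in R 4.3.3 by limma 3.58.1, using a mean-variance trend, Benjamini-Hochberg adjustment over 9259 genes, at a threshold of 0.05. Differences are CD34-positive minus CD34-negative on that scale, which understates the change of low genes. Where an unadjusted p of one fit stands beside an adjusted p of the other, the values cannot be compared. The script was tested on simulated data. The labels do not say that replicates are separate cultures, and p-values reflect only the spread between libraries, which may be technical.

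Description numbers (3a read as 3) were taken to pair libraries: deviations from group means correlated at 0.70 (number 3), 0.92 (number 2), 0.82 (number 4) and 0.85 (number 4a), and from -0.86 to 0.37 between unlike numbers. The numbers also separate the kinds of library, so pairing and kind cannot be told apart. Alternatives were 28 planned settings and 2 added after seeing the data.

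All members are named, with Cd34, up to 4 genes per role list by smallest p and the 3 closest profiles to Tgfbr1 and Acvr1b; others were chosen after their values were seen. Members and lists were chosen with earlier results of these data known. Promoter windows are from RefSeq and cover 7 of 10 members, with Smad2, Smad4 and Smad7 on chromosome 18 left out. Nrros was not listed under that symbol. In GENCODE vM21, no exon of a member overlaps another gene.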

Additional observations from a re-analysis of the deposited data

Results flagged for a closer look

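Of 29 genes screened in the 4 CD34-negative libraries, 2 had a single library standing apart, judged on the log2 scale by its gap to the nearest library over the range of the group. Chance flags about 1 in 20 groups. Cdkn1a was low in CD34-negative replicate 4, with a gap of 0.927 of the range. Sin3a was low in CD34-negative replicate 2, with a gap of 0.840. No member stood out in this way, and the 3 CD34-positive libraries are too few for it.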

How the results depend on the processing

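Tgfb1, Tgfbr1, Tgfbr2, Acvr1b, Smad3, Smad4, Smad7 and Ski kept their sign in each of the 30 alternatives (29 for Smad3, which a filter of 5 FPKM removes). Bmpr2 reversed to 0.0017 with a pseudocount of 0.1, 0.011 with FPKM rescaled without ribosomal protein genes, 0.18 with the replicate block, 0.23 when CD34-negative replicates 3 and 4 were averaged into 1 sample (with or without the block), 0.45 without the number 4 libraries, and 0.33 and 0.18 with the block and rescaling without ribosomal protein genes, or without these and small RNA genes. Smad2 reversed to -0.083 with quantile normalization, -0.057 with median-ratio scaling, -0.14 without the number 2 libraries and -0.093 with rescaling without ribosomal protein and small RNA genes. Itgav reversed to -0.030 with quantile normalization, -0.022 without the number 3 libraries and -0.027 with the last rescaling, and Hdac1 to -0.032 without the number 4 libraries. When any 1 library was left out, Bmpr2 ranged from -0.65 to 0.53, Smad2 from -0.42 to 0.37, Itgav from -0.28 to 0.44, Id3 from -0.28 to 0.86, Sin3a from -0.10 to 0.57, Sp1 from -0.14 to 0.38 and Hdac1 from 0.0033 to 1.34 without the block. With the replicate block, Bmpr2 was 0.091 without either replicate 1 library, 0.048 without either replicate 2 library, 0.45 and 0.46 without replicate 3 of the positives and of the negatives, Id3 was -0.11 without either replicate 1 library, and Hdac1 was -0.032 without CD34-positive replicate 3. The cause was not tested.

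With the replicate block and rescaling without ribosomal protein genes, 435 genes passed as higher and 146 as lower in limma, among them 3 members as higher, Acvr1b, Smad3 and Tgfbr1, and of the other named genes Cd34, Acvrl1, Fkbp1a, Smad1 and Id1 as higher and Id2 as lower. That rescaling keeps Mir703 in the sum and moves the median of all genes to 0.19, against 0.037 with the block alone. With small RNA genes also left out of the sum, chosen after seeing the data, 0 passed (with no adjustment, p was under 0.05 for 1209 higher and 714 lower). With the block and these replicates averaged, 1 gene passed as higher and 16 as lower, none a member. Leaving out 1 library gave 0 to 7 genes higher and 0 to 3 lower without the block, the most without CD34-negative replicate 1. With the replicate block it gave 0 to 231 higher and 0 to 125 lower: 230 and 81 when CD34-positive replicate 1 was left out, 231 and 81 for replicate 1 of the negatives, 32 and 125 for replicate 3 of the negatives, and 1 higher for CD34-positive replicate 3. Among these 0 to 1 were members, called higher (Smad3, without either replicate 1 library).

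At an unadjusted p under 0.05 in limma, the 2 higher members became 1 with a filter of 5 FPKM (182 of 7432 genes higher). They became 1 with CD34-negative replicates 3 and 4 averaged (203 of 9259) and with rescaling without ribosomal protein and small RNA genes (263 of 9331). The count was 0 without the number 2 (145 of 9259) or the number 4 libraries (39 of 9259). With the block, 5 members were higher with CD34-negative replicates 3 and 4 averaged (1434 of 9259 genes higher, 1086 lower). With the block and the last rescaling, 4 members were higher (1209 of 9331 genes higher, 714 lower). In each of these, and in the block alone, 1 member was lower. Leaving out 1 library gave 0 to 7 higher and 0 to 1 lower. The 7 came with the block and without CD34-negative replicate 3, where 1514 of all 9259 genes were higher and 1106 lower at that level.

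The members with one sign in all comparisons within numbers, 4 higher and 1 lower, became 2 lower with median-ratio scaling (Smad7 added) and with rescaling without ribosomal protein and small RNA genes, and 7 higher and 2 lower without the number 4 libraries. Leaving out 1 library gave 4 to 7 higher and 1 to 2 lower, with 7 higher without CD34-positive or CD34-negative replicate 3. Where libraries are left out, fewer comparisons have to agree, and no share of all genes is given for these counts. Groups did not overlap for Ski with quantile normalization (1 lower), for Acvr1b and Smad3 (2 higher) and Ski (1 lower) with median-ratio scaling, and for Tgfb1 (1 higher) with either rescaling. They did not overlap for 2 higher and 1 lower member without the number 3 or the number 4 libraries and for 1 higher without the number 2 libraries. Leaving out 1 library gave 0 to 2 higher and 0 to 1 lower. Groups of fewer libraries separate more readily for any gene, and no share of all genes is given for the settings of this paragraph. Unknown depth limits the low members most, above all Smad3.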
